A study of Mus musculus with 6 samples.

Results

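The genes described here encode the subunits and partners of the DREAM complex, a repressor of cell cycle genes in resting cells. They comprise 4 genes of its MuvB core (Lin9, Lin37, Lin52 and Lin54), the RB family (Rb1, Rbl1 and Rbl2) and the activators Mybl2 and Foxm1, which act on the same target genes in dividing cells. These 9 genes were chosen by name, and each was matched by its GENCODE M21 identifier among the 55450 genes counted in the files. All 9 passed the filter on low counts, which left 17037 genes to be tested. The data are 6 bulk RNA-Seq libraries of primary hepatocytes from C57BL/6 mice (substrain C57BL/6J) on a normal diet, with 3 libraries at 0 h and 3 at 48 h after partial hepatectomy (PHx), an operation in which most of the liver is taken out. The mice were 10 to 12 weeks old at surgery according to the labels, which name no engineered allele, whereas the study's methods give a slightly younger age. The 0 h hepatocytes came from undamaged liver rather than from sham-operated mice, so a response to surgery itself cannot be told apart from regeneration. Hepatocytes were isolated by collagenase perfusion, and the RNA was measured in bulk, so more transcript per cell and more cells with the transcript cannot be told apart. According to the study's methods, the libraries of a time point are biological replicates from separate hepatocyte preparations of male mice.

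In resting cells, the MuvB core joins p130 (encoded by Rbl2) or p107 (Rbl1) together with E2F4 or E2F5 and a DP protein, and the whole assembly keeps cell cycle genes silent. When cyclin-dependent kinases become active, the pocket proteins are released, and the same core recruits B-MYB (Mybl2) and then FOXM1 to the promoters of genes for mitosis. RB itself (Rb1) holds the activating E2F proteins in check but is not a DREAM subunit. In the liver, these proteins are best known from regeneration after tissue loss, when resting hepatocytes replicate their DNA and pass through mitosis.

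Gene counts per library ranged from 31419443 to 36346220, so that a floor of 3 counts corresponded to 0.0839 to 0.102 CPM (counts scaled to the same library total after TMM normalization). Hepatocyte markers were abundant, and the 20 genes of that list took 12.9% to 15.2% of gene counts at 0 h and 10.8% to 12.8% at 48 h. Markers of other cells were scarce. The 12 Kupffer cell markers took 0.00777% to 0.0116% at 0 h and 0.0121% to 0.0161% at 48 h, the 14 endothelial markers 0.0297% to 0.0475% and 0.0233% to 0.0283%, and the 12 stellate cell markers 0.0121% to 0.0192% and 0.00937% to 0.0127%. The 10 lymphoid markers took at most 0.000451% of any library and the 10 neutrophil markers at most 0.000165%, with Mpo, Ltf and Retnlg at 0 counts in all 6 libraries. The 10 cholangiocyte markers took 0.00335% to 0.00594% and 0.00529% to 0.00663%, with Krt19 and Krt7 at 4 counts or fewer in each library, and the 10 erythroid markers 0.00556% to 0.00838% and 0.00204% to 0.00459%. On the scale of TMM-normalized CPM, the summed Kupffer cell markers overlapped between the time points.

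Promoter sequences are shown for 4 of the genes to let the letters of E2F sites next to the transcription start be compared, and no link between these letters and the transcript levels was tested. RefSeq entries on GRCm38.p6 were matched for 6 of the 9 genes. The 250 bases before the start are written 5′ to 3′ on the strand of the gene, with matches to an E2F consensus (TTTCCCGC, TTTCGCGC, TTTGCCGC or TTTGGCGC) or to the E2F core GGCGGGA, read on both strands, in capitals. The first pair are the RB family genes that moved in opposite directions, Rbl1 at chr2:157204535-157204784 (minus strand) and Rbl2 at chr8:91069807-91070056 (plus strand).
Rbl1: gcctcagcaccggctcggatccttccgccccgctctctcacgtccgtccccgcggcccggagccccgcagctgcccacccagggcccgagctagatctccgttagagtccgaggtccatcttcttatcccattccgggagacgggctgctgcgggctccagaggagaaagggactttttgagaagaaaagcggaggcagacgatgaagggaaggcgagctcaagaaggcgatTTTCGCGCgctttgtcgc
Rbl2: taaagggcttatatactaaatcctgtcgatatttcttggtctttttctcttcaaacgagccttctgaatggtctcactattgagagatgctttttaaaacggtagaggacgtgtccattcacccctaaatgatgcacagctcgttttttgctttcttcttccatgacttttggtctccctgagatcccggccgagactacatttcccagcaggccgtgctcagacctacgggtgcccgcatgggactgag
The second pair are Mybl2, at chr2:163054385-163054634 (plus strand), and Lin52, at chr12:84451258-84451507 (plus strand).
Mybl2: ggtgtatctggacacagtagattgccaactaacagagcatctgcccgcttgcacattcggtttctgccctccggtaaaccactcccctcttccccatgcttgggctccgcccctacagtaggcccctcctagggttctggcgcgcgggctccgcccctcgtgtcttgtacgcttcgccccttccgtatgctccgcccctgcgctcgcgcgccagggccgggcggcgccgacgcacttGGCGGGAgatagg
Lin52: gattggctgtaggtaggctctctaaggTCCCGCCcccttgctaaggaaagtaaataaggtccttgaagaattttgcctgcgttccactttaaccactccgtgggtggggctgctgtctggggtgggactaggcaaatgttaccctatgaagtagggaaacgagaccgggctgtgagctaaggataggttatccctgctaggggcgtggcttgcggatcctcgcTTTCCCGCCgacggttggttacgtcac

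In Rbl1 the consensus TTTCGCGC lay 18 to 11 bases before the start, and in Mybl2 the core GGCGGGA lay 13 to 7 bases before it. The Lin52 window held the consensus TTTCCCGC at 27 to 20 bases, which overlaps a reverse match of the core at 25 to 19 bases, and a further core match at 223 to 217 bases. No match to these letters was found in the Rbl2 window. Lin37 held a reverse core match 16 to 10 bases before its start, and of the 2 entries for Lin54 only the downstream promoter held a core match, at 89 to 83 bases. Among all 32851 promoter entries, 1.86% held the consensus and 9.75% the core in the same 250 bases. Of the G1/S target genes listed further on, 8 of 33 with an entry held the consensus and 10 of 33 the core, and of the G2/M target genes 1 of 34 and 8 of 34. The CHR element TTTGAA, the sequence that the LIN54 subunit binds, was present in 16.0% of all entries, in 4 of 33 G1/S and 10 of 34 G2/M target genes, and in the windows of Lin37, Lin54 and Rbl2. The CCAAT box, CCAAT on either strand, was held by 33.8% of all entries, by 22 of 33 G1/S and 29 of 34 G2/M target genes and by Lin37, Lin52 and Lin54. The MYB site TAACGG was held by 2.18% of all entries and by Rbl1 alone among these genes, and the forkhead site TGTTTAC by 3.17% of all entries and by none of them. A match describes letters in the window and does not show that a factor binds there.

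All 9 genes passed the test between the time points, 8 of them higher and 1 lower at 48 h, and in each of them the 3 libraries of one time point did not overlap the 3 of the other. Across all genes tested, 40.7% passed the same test (edgeR's quasi-likelihood test, Benjamini-Hochberg adjusted p under 0.05), with 21.4% higher and 19.3% lower, and 27.8% had all 48 h libraries above all 0 h libraries while 25.0% had them below. The median log2 fold change was 0.96 over the 9 genes and -0.00 over all genes tested. When TMM was replaced by plain library size, the higher genes made up 71.6% of all calls rather than 52.5%, the median over all genes moved by 0.20, and no member changed direction. Calls of 3 of the 9 genes (Lin52, Rb1 and Mybl2) were lost in several alternatives, as given with each gene, and the count of higher members fell from 8 to 5 without 0 h replicate 1 and to 5 without 48 h replicate 2.

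**Figure D1:**
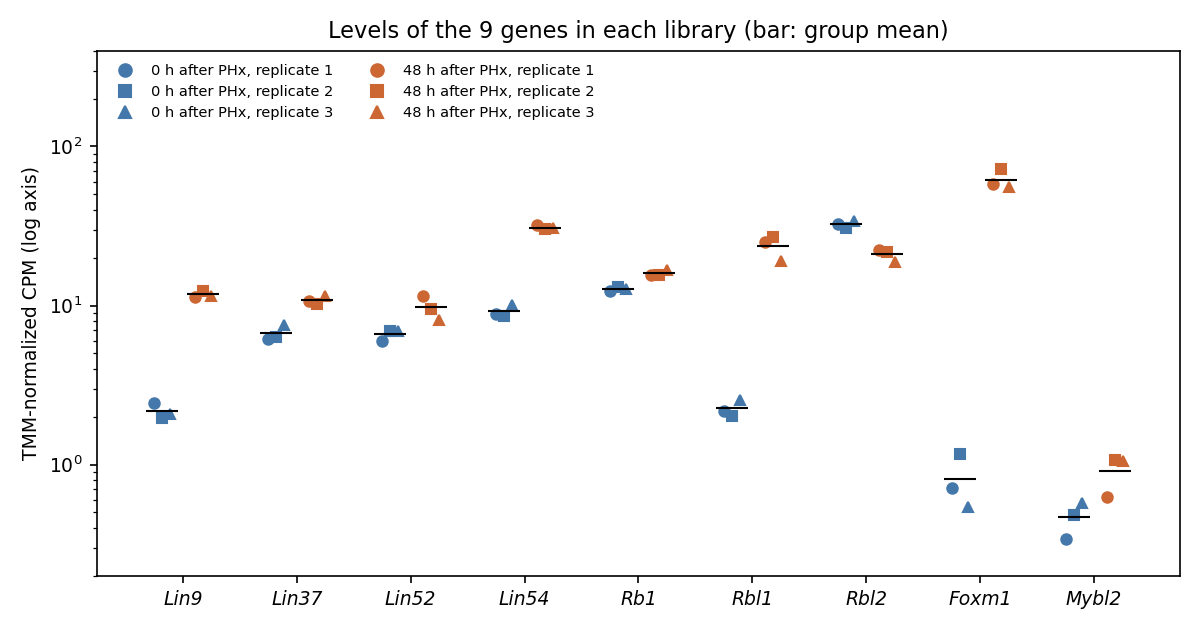
TMM-normalized CPM (log axis) of the 9 genes in each of the 6 libraries, 3 at 0 h and 3 at 48 h after PHx, with bars at the group means. Foxm1 rose from under 1.2 CPM to 55.9 CPM or more, whereas Mybl2 stayed at 1.06 CPM or less, and Rbl2 is the only gene whose 48 h libraries lie below its 0 h libraries.

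Among the activators, Foxm1 and Mybl2 followed very different courses. Foxm1 (ENSMUSG00000001517.14; chromosome 6, 128362967 to 128376146, GRCm38), a forkhead transcription factor that drives genes of the G2 and M phases, had 21, 36 and 18 counts in the 3 libraries at 0 h and 1950, 2578 and 1956 counts at 48 h. These counts correspond to 0.715, 1.16 and 0.542 CPM in undamaged liver and to 57.9, 72.1 and 55.9 CPM after PHx. Every 48 h library therefore lay far above every 0 h library, with replicate 2 the highest at each time point. Its log2 fold change was 6.26 (95% interval 5.76 to 6.77, adjusted p = 3.53e-08 in edgeR's quasi-likelihood test), a 76.8-fold difference that only 46 of the 17037 genes tested exceeded. Other genes on the same strand overlap 2.5% of its exon bases, and these genes, Tex52 and Gm44596, had at most 1 count in any library.

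Mybl2 (ENSMUSG00000017861.11; chromosome 2, 163054687 to 163084688), which encodes B-MYB, the usual MYB partner of the MuvB core in dividing cells, had 10, 15 and 19 counts at 0 h and 21, 38 and 37 counts at 48 h. In CPM it stood at 0.340, 0.483 and 0.572 in undamaged liver and at 0.624, 1.06 and 1.06 after PHx. The highest 0 h library and the lowest 48 h library were thus only 2 counts apart before scaling. Its log2 fold change was 0.96 (95% interval 0.21 to 1.72, adjusted p = 0.0440 in edgeR's quasi-likelihood test), an approximately 1.95-fold difference. This call was lost on leaving out any library except 48 h replicate 1, with adjusted p-values of up to 0.139, and DESeq2 gave an adjusted p of 0.102. At 48 h the level per kilobase of exon of Foxm1 was 10.8 ± 1.54 (SD, n = 3) CPM per kb and that of Mybl2 was 0.197 ± 0.0544 (SD, n = 3).

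The related gene Mybl1 showed a much larger difference than Mybl2. Mybl1 (ENSMUSG00000025912.16; chromosome 1, 9667415 to 9700209), which encodes A-MYB and is best known for its role in male germ cells, had 16, 22 and 14 counts at 0 h and 1995, 1659 and 1778 counts at 48 h. Every 48 h library lay far above every 0 h library. The mean level was 0.558 ± 0.144 (SD, n = 3) CPM in undamaged liver and 52.1 ± 6.53 (SD, n = 3) CPM after PHx. The edgeR quasi-likelihood test gave a log2 difference of 6.54 with a standard error of 0.191 (adjusted p = 1.75e-08). Per kilobase of exon, the ratio of Mybl1 to Mybl2 was 1.37, 1.26 and 0.632 in the 3 libraries at 0 h and 81.5, 37.4 and 41.2 at 48 h. Both genes were thus close to equally rare in undamaged liver, and Mybl1 was at least 37.4 times as abundant after PHx in every library. No annotated exon of another gene overlaps Mybl1 or Mybl2. Myb itself, the founding member of the family, had 0 counts in each 0 h library and 3, 1 and 6 counts at 48 h, too few to be tested.

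**Figure D2:**
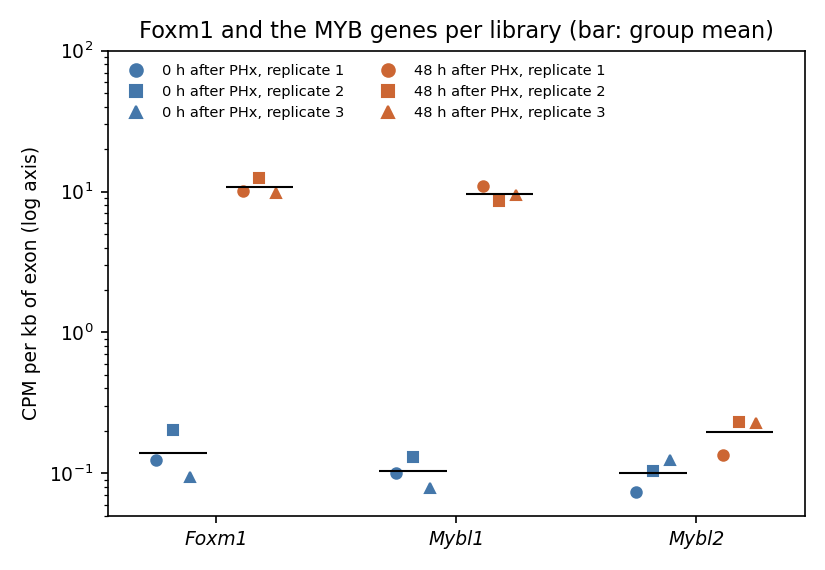
CPM per kilobase of exon (log axis) of Foxm1, Mybl1 and Mybl2 in each library, with bars at the group means of 3 libraries. At 48 h, Foxm1 and Mybl1 reached 10.8 and 9.65 CPM per kb on average, whereas Mybl2 reached 0.197.

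Beside the low counts of Mybl2, the Kupffer cell markers given above were higher at 48 h as a share of counts, with 3 of 12 (Marco, Cd5l and Cd68) higher and none lower in the edgeR test, against 21.4% of all genes higher. The other 9 did not pass the test, with log2 fold changes in both directions. Of the other cell types, 13 of 14 endothelial, 7 of 20 hepatocyte and 3 of 11 tested stellate cell markers were lower, against 19.3% of all genes, and 2 hepatocyte markers and 1 stellate cell marker were higher. Of the cholangiocyte markers, 3 of 5 tested (Prom1, Muc1 and Spp1) were higher and none lower, and of the erythroid markers 2 of 3 tested were lower, as were 1 of 2 tested lymphoid markers and the 1 tested neutrophil marker. The part of any of these cell types in the Mybl2 difference was not tested. Over the 6 libraries, the genes nearest to Mybl2 in centred log2 CPM were Zbtb8a, the Kupffer cell gene Cd5l and Ckb, with root mean square differences of 0.098, 0.125 and 0.135. For Foxm1 the nearest genes were Aurkb, Mki67 and Racgap1, at 0.109, 0.206 and 0.224. Aurkb (Aurora B kinase) and Racgap1 act in chromosome segregation and cytokinesis, and Mki67 encodes the Ki-67 antigen of dividing cells. This likeness was measured over 6 libraries and 13329 other genes whose mean level reached 1 CPM, and the libraries share the same contrast of time points.

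Within the RB family, Rbl1 rose, Rbl2 fell and Rb1 moved least. Rbl1 (ENSMUSG00000027641.13; chromosome 2, 157145893 to 157204534), which encodes p107, the pocket protein of cycling cells, had 64, 63 and 85 counts at 0 h and 839, 967 and 665 counts at 48 h. This corresponds to 2.18, 2.03 and 2.56 CPM and to 24.9, 27.0 and 19.0 CPM. Replicate 3 was the lowest of the 48 h libraries and still lay far above each 0 h library. The log2 fold change of Rbl1 was 3.39 (95% interval 2.99 to 3.78, adjusted p = 2.97e-07 in edgeR's quasi-likelihood test), a 10.5-fold difference. Genes of like course were Rrm1, the large subunit of ribonucleotide reductase, the chromatin protein gene Hmgb2, and 2700099C18Rik, with root mean square differences of 0.0864, 0.126 and 0.131.

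Rbl2 (ENSMUSG00000031666.15; chromosome 8, 91070057 to 91123844), which encodes p130, the main pocket protein of the DREAM complex in resting cells, had 953, 953 and 1137 counts at 0 h and 750, 781 and 655 counts at 48 h. On the CPM scale it fell from 32.4, 30.7 and 34.2 to 22.3, 21.8 and 18.7. All 3 libraries after PHx thus lay below all 3 of undamaged liver, by a log2 fold change of -0.63 (95% interval -0.88 to -0.39, adjusted p = 0.00113 in edgeR's quasi-likelihood test). The level at 48 h was 0.645 times that at 0 h. Genes on the other strand overlap 21% of the exon bases of Rbl2, and the strand setting of the counting was not stated. Of these genes, Aktip had 188 to 238 counts per library and did not pass the test (log2 fold change 0.02, adjusted p = 0.946 from edgeR), and Gm45464 had 6 to 29 counts and was lower at 48 h (log2 fold change -1.18, adjusted p = 0.0358 from edgeR). The genes nearest to Rbl2 in course were Tmem50a, Exosc5 and Tcn2, with root mean square differences of 0.0447 to 0.0596.

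Rb1 (ENSMUSG00000022105.6; chromosome 14, 73183673 to 73325822), the retinoblastoma gene, had 361, 405 and 422 counts at 0 h and 524, 555 and 589 counts at 48 h. Its CPM were 12.3, 13.1 and 12.7 in undamaged liver and 15.6, 15.5 and 16.8 after PHx. The groups did not overlap, but the difference was the smallest of the 9 genes, with a log2 fold change of 0.33 (95% interval 0.09 to 0.58, adjusted p = 0.0355 in edgeR's quasi-likelihood test). The call was lost on leaving out any library except 0 h replicate 2, with adjusted p-values of up to 0.109, and in DESeq2 (adjusted p = 0.0648). Genes on the other strand, Rcbtb2 and Lpar6, overlap 14.9% of its exon bases, and neither passed the test, with log2 fold changes of -0.18 and -0.11. Trip11, Eif3a and Sem1 were closest to Rb1, with root mean square differences of 0.0286 to 0.0357.

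The make-up of the RB family transcripts differed between the time points. Per kilobase of exon, Rbl2 made up 63.3% ± 1.30 (SD, n = 3) of the summed level of the 3 genes in undamaged liver and 29.6% ± 0.758 (SD, n = 3) after PHx. Rbl1 went from 5.54% ± 0.454 (SD, n = 3) to 41.9% ± 3.93 (SD, n = 3), and Rb1 from 31.1% ± 1.66 (SD, n = 3) to 28.6% ± 3.98 (SD, n = 3). The ratio of Rbl1 to Rbl2 was 0.0847, 0.0834 and 0.0943 in the 0 h libraries and 1.41, 1.56 and 1.28 in the 48 h libraries. Per kilobase of exon, Rbl2 was therefore the higher of the pair in each library of undamaged liver and Rbl1 in each library after PHx. Without division by exon length, the ratios in the 48 h libraries were lower, at 1.12, 1.24 and 1.02. Genes on the other strand overlap 21% of the exon bases of Rbl2 and none of Rbl1, so the ratio is less certain without a stated strand setting. Mybl2 remained far below Rbl2, at a ratio of 0.0234 ± 0.00546 (SD, n = 3) before PHx and 0.0724 ± 0.0240 (SD, n = 3) after it. The summed level of the RB family was 6.78 ± 0.259 (SD, n = 3) CPM per kb in undamaged liver and 9.37 ± 0.819 (SD, n = 3) after PHx.

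**Figure D3:**
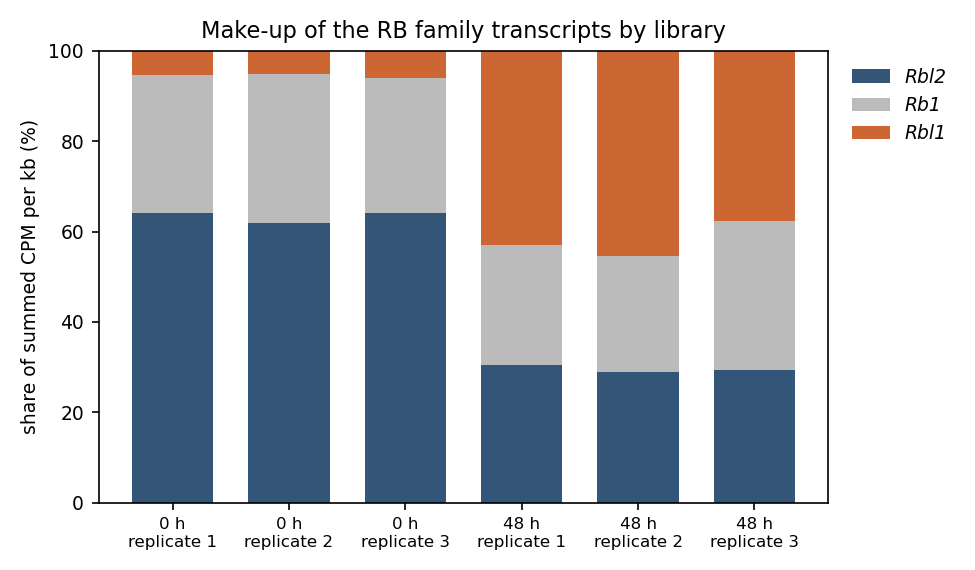
Share (%) of the summed CPM per kilobase of exon that Rbl2, Rb1 and Rbl1 took in each of the 6 libraries. Rbl2 took 61.8% to 64.1% at 0 h and 28.9% to 30.4% at 48 h, and Rbl1 took 5.15% to 6.04% and 37.5% to 45.2%.

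The 4 LIN genes of the MuvB core were all higher at 48 h, but by unequal amounts, with Lin9 and Lin54 rising more than Lin37 and Lin52, whereas the further core gene Rbbp4, described with the partners, did not pass the test. Lin9 (ENSMUSG00000058729.13; chromosome 1, 180641150 to 180690694), whose product links the core to B-MYB, had 72, 61 and 69 counts at 0 h and 381, 443 and 402 counts at 48 h. It went from 2.45, 1.97 and 2.08 CPM to 11.3, 12.4 and 11.5 CPM. The spread within each time point was small beside this difference, and the log2 fold change was 2.44 (95% interval 2.09 to 2.78, adjusted p = 1.21e-06 in edgeR's quasi-likelihood test). Its nearest genes were Topbp1, Gmnn and Dck, at root mean square differences of 0.102 to 0.111. They encode a replication checkpoint protein, the licensing inhibitor geminin and deoxycytidine kinase.

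Lin54 (ENSMUSG00000035310.15; chromosome 5, 100441918 to 100500639), which encodes the DNA-binding subunit, had 259, 268 and 334 counts at 0 h and 1074, 1078 and 1077 counts at 48 h. Its CPM were 8.82, 8.64 and 10.1 in undamaged liver and 31.9, 30.1 and 30.8 after PHx. The 48 h libraries were almost equal, and the log2 fold change was 1.75 (95% interval 1.5 to 2.0, adjusted p = 1.21e-06 in edgeR's quasi-likelihood test). A630089N07Rik, Casz1 and Mbd4 were the closest genes, at root mean square differences of 0.0707 to 0.0992.

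Lin37 (ENSMUSG00000036845.12; chromosome 7, 30555441 to 30559838), a subunit needed for repression by the complex, had 181, 198 and 249 counts at 0 h and 359, 365 and 400 counts at 48 h. On the CPM scale it moved from 6.16, 6.38 and 7.5 to 10.7, 10.2 and 11.4, a log2 fold change of 0.69 (95% interval 0.38 to 0.99, adjusted p = 0.00283 in edgeR's quasi-likelihood test). The intervals of Lin37 and of Lin9 and Lin54 do not overlap. Only 3 exon bases of Lin37 are shared with a gene on the other strand, Hspb6. The genes nearest to it were Tmem189, Zfp51 and Nab1, at 0.0348 to 0.0427.

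Lin52 (ENSMUSG00000085793.2; chromosome 12, 84451422 to 84546145), the subunit through which the core holds the pocket proteins, had 176, 215 and 231 counts at 0 h and 388, 341 and 284 counts at 48 h. It stood at 5.99, 6.93 and 6.96 CPM in undamaged liver and at 11.5, 9.54 and 8.11 CPM after PHx. The 48 h libraries were more spread than those of the other core genes, and the lowest, replicate 3, lay closest to the 0 h libraries. The log2 fold change was 0.55 (95% interval 0.19 to 0.91, adjusted p = 0.0203 in edgeR's quasi-likelihood test). This call was lost without 0 h replicate 1 (adjusted p = 0.0745), without 48 h replicate 1 (adjusted p = 0.0890) and without 48 h replicate 2 (adjusted p = 0.0543, all from edgeR). Lpgat1, Armcx3 and Nt5c3 were nearest in course, at 0.0506 to 0.0526.

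In summed level per kilobase of exon, the 4 core genes went from 8.22, 8.58 and 9.65 CPM per kb at 0 h to 18.4, 17.3 and 17.7 at 48 h. The sum was thus higher in each library after PHx. The share of Lin9 in this sum went from 3.42% ± 0.614 (SD, n = 3) to 9.10% ± 0.714 (SD, n = 3) and that of Lin54 from 17.9% ± 0.569 (SD, n = 3) to 29.8% ± 0.0929 (SD, n = 3). Lin37 went from 54.5% ± 1.27 (SD, n = 3) to 43.5% ± 2.57 (SD, n = 3) and Lin52 from 24.2% ± 1.54 (SD, n = 3) to 17.5% ± 2.69 (SD, n = 3). Per kilobase of exon, Lin9 was thus the lowest of these 4 genes and Lin37 the highest in every library. This order depends on the division by exon length, 7244 bases for Lin9 and 1388 for Lin37. Without it, mean CPM at 48 h were 30.9 for Lin54, 11.7 for Lin9, 10.8 for Lin37 and 9.72 for Lin52.

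**Figure D4:**
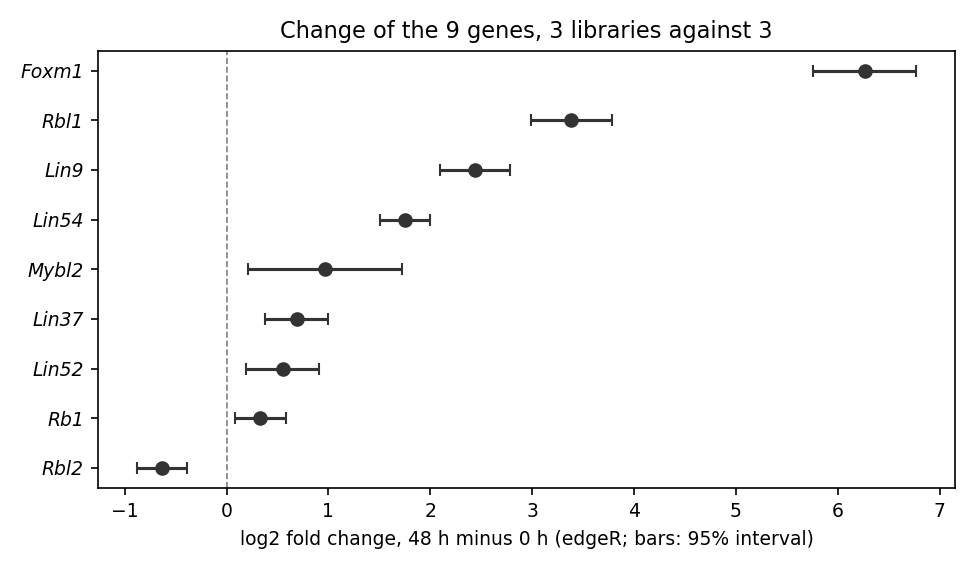
Log2 fold change (48 h minus 0 h) of the 9 genes from edgeR's quasi-likelihood fit over 17037 genes, with 95% intervals as bars. The point estimates run from -0.63 for Rbl2 to 6.26 for Foxm1, and the intervals of Rb1, Lin52 and Mybl2 come closest to 0.

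Ordered by level per kilobase of exon, undamaged liver held Lin37 (4.81 CPM per kb) and Rbl2 (4.30) at the top, followed by Lin52 (2.13), Rb1 (2.11), Lin54 (1.58), Rbl1 (0.376), Lin9 (0.299), Foxm1 (0.140) and Mybl2 (0.10). The libraries of Lin37 and Rbl2, of Lin52 and Rb1, and of Foxm1 and Mybl2 overlapped, so the order within these pairs is not settled. At 48 h the order was Foxm1 (10.8), Lin37 (7.75), Lin54 (5.31), Rbl1 (3.95), Lin52 (3.13), Rbl2 (2.77), Rb1 (2.65), Lin9 (1.62) and Mybl2 (0.197). Here the libraries of neighbours overlapped only from Rbl1 down to Rb1. Foxm1 was among the pair of lowest genes at 0 h and stood first in each library at 48 h, where Mybl2 stood last in each.

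Of the other components of the DREAM complex, some rose and some did not pass the test. Of 6 partner genes, E2f4, E2f5 and Tfdp1 rose and none fell, against 21.4% of all genes higher and 19.3% lower. The median log2 fold change over the 6 was 0.34. E2f4, the main repressive E2F of the complex, went from 25.5 CPM ± 1.18 (SD, n = 3) up to 37.0 CPM ± 2.19 (SD, n = 3), and E2f5, its close relative, from 4.37 ± 0.0789 (SD, n = 3) to 6.78 ± 0.593 (SD, n = 3) CPM. Tfdp1, which encodes the DP1 partner of E2F proteins, went from 15.1 CPM ± 0.750 (SD, n = 3) up to 41.8 CPM ± 1.69 (SD, n = 3) (log2 fold change 1.47, adjusted p = 2.05e-06 in edgeR's quasi-likelihood test). Rbbp4, the histone-binding subunit of the MuvB core, differed by -0.05 on the log2 scale, with a standard error of 0.0981 (adjusted p = 0.734 from edgeR), and stood at 51.4 to 59.5 CPM in all 6 libraries. For Tfdp2 the log2 difference was -0.00 with a standard error of 0.125, and for Dyrk1a, the kinase that promotes assembly of the complex through LIN52, it was 0.15 with a standard error of 0.106.

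Genes for the kinases that inactivate the pocket proteins, and for the inhibitors of these kinases, were mostly higher at 48 h where they could be tested. Of 9 genes for cyclins and kinases that act on the RB family, 7 were higher and none was lower, with a median log2 fold change of 1.21. Across all genes tested, 21.4% were higher and 19.3% lower. Ccne1 and Ccna2, the cyclins E1 and A2, went from 0.577 CPM ± 0.226 (SD, n = 3) up to 23.9 CPM ± 0.541 (SD, n = 3) and from 0.937 ± 0.190 (SD, n = 3) to 44.1 ± 7.59 (SD, n = 3) CPM. Their kinase gene Cdk2 had a log2 fold change of 1.21, and Cdk4, the partner of D-type cyclins, one of 0.75. Ccnd2 (log2 fold change -0.24, adjusted p = 0.319 from edgeR) and Cdk6 (0.26, adjusted p = 0.0787 from edgeR) did not pass the test. Of 7 genes for CDK inhibitors, 4 could be tested and all 4 were higher, against 21.4% of all genes. Cdkn1a (p21) had a log2 fold change of 3.43, Cdkn2c (p18) of 3.91, Cdkn2d (p19) of 2.44 and Cdkn1b (p27) of 0.68, whereas Cdkn1c, Cdkn2a and Cdkn2b had 17 counts or fewer in every library. The 6 other E2F genes were all higher, against 21.4% of all genes, with a median log2 fold change of 2.42. E2f2 (3.67), the atypical repressor E2f7 (3.57) and E2f1 (2.97) moved most, and E2f6 (0.41) least.

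Corepressor and chromatin partners of the pocket proteins showed no common direction. Of 9 genes, Hdac1, Hdac2 and Suv39h1 were higher at 48 h, and Sin3b and Arid4a were lower, with a median log2 fold change of 0.15, against 21.4% of all genes higher and 19.3% lower. Suv39h1, a histone H3 methyltransferase, had the largest difference, from 4.59 ± 0.864 (SD, n = 3) to 21.4 ± 2.82 (SD, n = 3) CPM (log2 fold change 2.22, adjusted p = 4.07e-06 in edgeR's quasi-likelihood test). Sin3b, which encodes a scaffold of histone deacetylase complexes, had a log2 fold change of -0.33 (adjusted p = 0.0289 in the same edgeR test). Genes on the other strand overlap 14.6% of the exon bases of Suv39h1, 12.5% of those of Ccna2, 19.7% of those of Cdk4 and 18% of those of Rbbp4. They also overlap 30.7% of those of Cdkn1c and 12.7% of those of Cdc25c, a target gene given below. Without a stated strand setting, the counts of Suv39h1, Ccna2, Cdk4, Rbbp4, Cdkn1c and Cdc25c are less certain.

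The target genes of the complex were then examined in 2 lists of 40 genes each. Across all genes tested, 21.4% were higher and 19.3% lower at 48 h. Of the G1/S targets, which serve DNA replication and depend mainly on E2F sites, 39 were higher and 1 was lower. Their median log2 fold change was 3.17. Uhrf1, Cdc6 and Mcm5 had the highest log2 fold changes (7.36, 6.52 and 5.40), and Mcm10 and Tk1 the lowest (-0.77 and 0.87). All 40 G2/M targets, which serve mitosis and depend on the MuvB core, were higher, with a median of 5.62. Hmmr, Cdc25c and Dlgap5 had the highest values, of which Cdc25c had only 0, 3 and 1 counts at 0 h and 219, 237 and 147 at 48 h, and Dlgap5 2, 11 and 3 counts at 0 h and 663, 792 and 508 at 48 h. Hmmr, which encodes a spindle-associated protein, had a log2 fold change of 6.96, while Cks2 (1.25), Bora (2.22) and Cenpa (2.72) had the lowest. The summed level of the G1/S list was 218.0 to 269.4 CPM at 0 h and 1379 to 1515 CPM at 48 h, and that of the G2/M list 35.0 to 50.4 CPM and 1066 to 1637 CPM. Within the 48 h libraries, the G2/M sum stood at 1528, 1637 and 1066 CPM in replicates 1, 2 and 3.

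**Figure D5:**
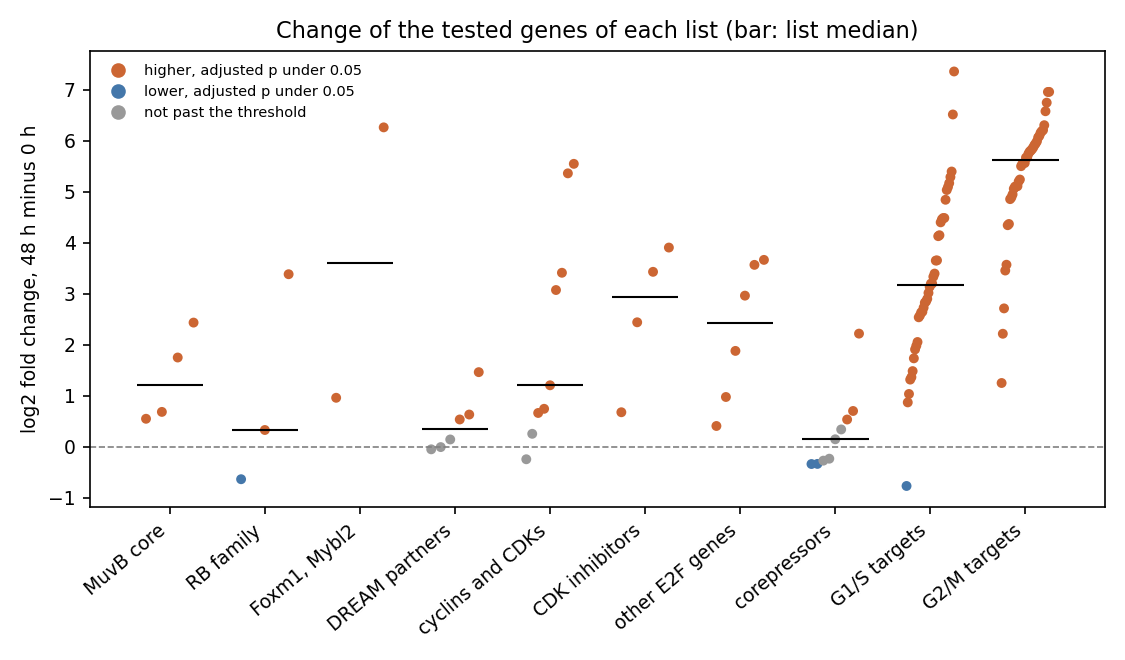
Log2 fold change (48 h minus 0 h) of every tested gene of 10 lists, coloured by call, with bars at the list medians. The list of MYB and FOXO genes is not plotted. The median is 5.62 for the G2/M targets and 3.17 for the G1/S targets, against 1.22 for the 4 LIN genes of the MuvB core and 0.34 for the DREAM partners, among which the core gene Rbbp4 is plotted.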

How the data were processed

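RNA of primary hepatocytes was sequenced in 6 libraries, 3 at 0 h and 3 at 48 h after PHx, grouped by the sample titles. The authors deposited raw counts per gene without normalization, in the layout of htseq-count. The submitters' processing notes name FastQC 0.11.5, Trim Galore 0.6.4, STAR 2.6, HTSeq 0.12.4, DESeq2 and the build mm10. Counting mode and strand setting are not given in the sources used here. The gene identifiers are those of GENCODE M21. Reads on no gene made up 24.3% to 32.7% and ambiguous reads 4.27% to 5.29% of each file and were left out. The lines for multiply aligned reads hold 0.

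Genes reaching 10 counts in 3 or more libraries entered the test in edgeR 4.0.16 under R 4.3.3 (TMM, glmQLFit and glmQLFTest, time point as the only term), with Benjamini-Hochberg adjustment over all 17037 genes and a threshold of 0.05. Standard errors are the log2 fold change divided by the square root of F, and 95% intervals use the total degrees of freedom. CPM were scaled by the TMM-adjusted library total and divided by the union of exon lengths where given per kb. Floors and intervals cover counting error and the spread between these samples only. The fit was tested on simulated data first. Alternatives were DESeq2 1.42.0, limma-voom (limma 3.58.1), other normalizations and filters, a replicate block and leaving out each library.

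The members and gene lists were chosen with earlier results of these data known, and the motifs after the promoter sequences were seen. Of the partner, kinase, inhibitor, E2F, MYB and FOXO and corepressor lists, any gene could be named. Of the target lists, the 3 highest and 3 lowest log2 fold changes were named, except for 1 gene that is not reported here, and for each member the 3 genes nearest in centred log2 CPM (prior count 2). Promoter sequences are from RefSeq (GRCm38.p6). Marker shares gave exact permutation p-values of 0.1 or more, the smallest that 3 libraries against 3 allow.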

Additional observations from a re-analysis of the deposited data

How the results depend on the processing

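No member reversed direction under any alternative run for it, and Foxm1, Rbl1, Rbl2, Lin9, Lin37 and Lin54 also stayed past the threshold in each. The log2 fold change of Foxm1 ranged from 6.03 to 6.62 and that of Rbl2 from -0.72 to -0.43. For Lin52 the value was 0.41 to 0.67 when 1 library was left out, and the call was lost in 3 of these 6 fits. Rb1 stood at 0.30 to 0.35 when 1 library was left out and lost its call in 5 of 6 fits, and also with upper quartile factors (0.25), with no filter on low counts (0.32), in DESeq2 (0.32) and with the replicate block (0.33). Mybl2 stood at 0.78 to 1.17 when 1 library was left out, again with the call lost in 5 of 6 fits, and lost it with upper quartile factors (0.88), limma-voom (0.93) and DESeq2 (0.96). The filter of at least 1 CPM in 3 libraries removed Mybl2. The number of higher members was 5 to 7 when 1 library was left out. Library size only gave 2110 genes lower at 48 h in place of 3288. Without division by exon length, the ratio of Rbl1 to Rbl2 was 0.0693 at 0 h and 1.12 at 48 h, and that of Mybl2 to Rbl2 was 0.0143 and 0.0444, since the exon lengths differ. The replicate block changed no other member's call. For libraries sharing a replicate number, the deviations from the group mean correlated at 0.0335, -0.0674 and -0.138 across genes. For libraries with different numbers, these correlations ran from -0.0486 to 0.132. The values show no sign of pairing by number, but with 3 libraries per time point they cannot exclude it. Apart from the exon lengths, the cause of these changes was not tested. Mybl2 had 10 to 38 counts per library, and the part of this depth in its calls was not tested.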

Other observations

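The FOXO genes, forkhead relatives of Foxm1 that restrain the cell cycle in resting cells, moved in both directions. Foxo3 was lower at 48 h, from 139 ± 32.5 (SD, n = 3) to 82.3 ± 5.97 (SD, n = 3) CPM (log2 fold change -0.76, adjusted p = 0.00439 in edgeR's quasi-likelihood test). Foxo4 was also lower (log2 fold change -0.39, adjusted p = 0.0494 from edgeR), and Foxo1 was higher (0.47, adjusted p = 0.0307 from edgeR) although its libraries overlapped between the time points.

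Among the genes of both target lists, the only one that was lower at 48 h was Mcm10, which encodes a replication initiation factor. It had 3188, 2039 and 2253 counts at 0 h and 1317, 1416 and 2230 counts at 48 h. In CPM, replicate 3 at 48 h (63.7) lay just below the lowest 0 h library (65.7), and the edgeR quasi-likelihood test gave a log2 difference of -0.77 with a standard error of 0.230 (adjusted p = 0.0222). At 80.7 CPM on average, Mcm10 was already abundant in undamaged liver, where Uhrf1 of the same list stood at 0.611 CPM and Mcm5 at 1.98 CPM. No annotated exon of another gene overlaps it, and no cause was tested.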
